A study of Mus musculus with 35 samples.

Results

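Acute phase genes of the mouse colon were followed across the 7 groups of a colitis study. The genes were chosen by symbol: the serum amyloid A genes Saa1, Saa2 and Saa3, lipocalin 2 (Lcn2), haptoglobin (Hp), complement C3, complement factor B (Cfb), leucine-rich alpha-2-glycoprotein 1 (Lrg1) and ceruloplasmin (Cp). Of these 9 genes 8 were measured, each by 1 probe set, among 19908 genes in all. C3 was not analysed here.

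Each of 35 C57BL/6N mice gave total RNA from the colon to 1 Affymetrix Mouse Gene 1.0 ST array, with 5 mice in each group, and values are log2 signal, so that a difference of 1 is a doubling. Conventional animals were of either genotype, wild-type or Reg3a-transgenic. In each genotype 1 group was untreated and 1 group drank 3% dextran sulfate sodium (DSS), which injures the colon epithelium, for 5 days and then water. Axenic (germ-free) mice made up 3 groups, and all of them received DSS. Recipients of flora from wild-type donors and recipients of flora from transgenic donors drank DSS 3 weeks after the transplantation, and the axenic controls are labelled as given DSS before a microbial transfer. Colons were taken on day 12 of the treatment. The species of the Reg3a transgene, its promoter, and the sex, age, cage and hybridisation batch of the mice are not stated in the labels. A treatment field names a microbial transfer for conventional mice as well; groups here follow the titles. Mice are called by the end of their titles, such as WT9, TG49 or CT229.

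Acute phase proteins are secreted in large amounts when interleukins 1 and 6 and related cytokines act through NF-kB, STAT3 and the C/EBP factors. The liver is their main source, and gut epithelium, macrophages and neutrophils make some of them locally. Serum amyloid A proteins bind lipids and retinol, lipocalin 2 withholds bacterial siderophores and with them iron, haptoglobin binds free haemoglobin, ceruloplasmin is a copper-carrying ferroxidase, factor B drives the alternative complement pathway, and Lrg1 modulates TGF-beta signalling in vessels. Faecal lipocalin 2 is widely used as a readout of intestinal inflammation.

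The upstream sequences show how close Saa1 and Saa2 are and how Saa3 and Lcn2 differ from them. Windows of the 250 bases before the start site came from a RefSeq promoter table of build GRCm38.p6, in which 7 of the 9 genes had an entry; those of Hp and Cfb were not found there. Saa1 (chr7:46742981-46743230, minus strand) and Saa2 (chr7:46751583-46751832, plus strand) are neighbours in opposite orientation. Their windows had the same base in 238 of 250 aligned columns (95.2%), with 11 substitutions and 1 gap column, and 1 end column was left out. Capitals mark the bases that differ.
Saa1: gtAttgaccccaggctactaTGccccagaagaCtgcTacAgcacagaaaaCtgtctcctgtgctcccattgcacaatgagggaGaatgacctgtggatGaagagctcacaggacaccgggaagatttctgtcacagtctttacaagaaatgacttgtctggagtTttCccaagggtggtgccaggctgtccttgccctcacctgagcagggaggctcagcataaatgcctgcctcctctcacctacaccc
Saa2: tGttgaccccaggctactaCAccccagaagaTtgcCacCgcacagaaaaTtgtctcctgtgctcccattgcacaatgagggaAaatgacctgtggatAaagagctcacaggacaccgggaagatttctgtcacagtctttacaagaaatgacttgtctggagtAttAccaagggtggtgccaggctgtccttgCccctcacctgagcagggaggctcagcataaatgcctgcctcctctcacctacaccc
The windows of Saa3 (chr7:46715677-46715926, minus strand) and Lcn2 (chr2:32387740-32387989, minus strand) are shown with matches to the C/EBP motif TTNNGNAA, searched on both strands, in capitals.
Saa3: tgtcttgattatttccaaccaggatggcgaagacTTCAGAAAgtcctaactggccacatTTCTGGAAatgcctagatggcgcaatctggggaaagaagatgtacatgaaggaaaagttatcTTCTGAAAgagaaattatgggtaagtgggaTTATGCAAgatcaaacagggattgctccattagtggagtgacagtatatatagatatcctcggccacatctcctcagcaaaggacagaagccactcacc
Lcn2: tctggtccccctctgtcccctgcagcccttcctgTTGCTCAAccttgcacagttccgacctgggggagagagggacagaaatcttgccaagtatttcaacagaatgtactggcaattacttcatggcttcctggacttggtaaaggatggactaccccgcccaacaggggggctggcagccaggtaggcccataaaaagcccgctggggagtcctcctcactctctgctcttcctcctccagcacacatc
The C/EBP motif was matched 4 times before Saa3, 2 times before Saa1 and 1 time before Saa2 and before Lcn2, and 36.8% of the 32536 promoter windows of the table held it. The STAT motif TTCNNNGAA (7.04% of windows) and the NF-kB consensus (7.28% of windows) had 0 matches in the windows of these 4 genes, so no match overlapped another motif. In the gene table of that build the windows of Saa1 and Saa3 lie at least partly within the longest extent of their genes, so a start site farther upstream is also annotated. A match is a description of letters, not of a bound site.

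Array quality and tissue markers set the frame for what follows. The median log2 signal per array lay between 6.65 and 6.95, and arrays correlated pairwise at r = 0.871 to 0.994. The SD of log2 signal per array was 1.64 to 1.78 in the axenic controls and 1.90 to 2.03 with wild-type flora. It was 1.66 to 1.94 with transgenic flora and 1.76 to 1.97 in untreated wild-type mice. The mean log2 signal of 9 colon epithelium markers was 11.03 or higher in every mouse except axenic controls CT517 (10.22) and CT229 (10.70). Xist, a transcript of female cells, read at least 10.86 in 8 mice, 2 in each conventional group, and at most 5.38 in the other 27. In these bulk samples fewer cells of a type and less RNA per cell cannot be told apart. The labels do not say how the mice of a group were housed or handled, and p-values measure the spread among these 5 mice only.

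**Figure D1:**
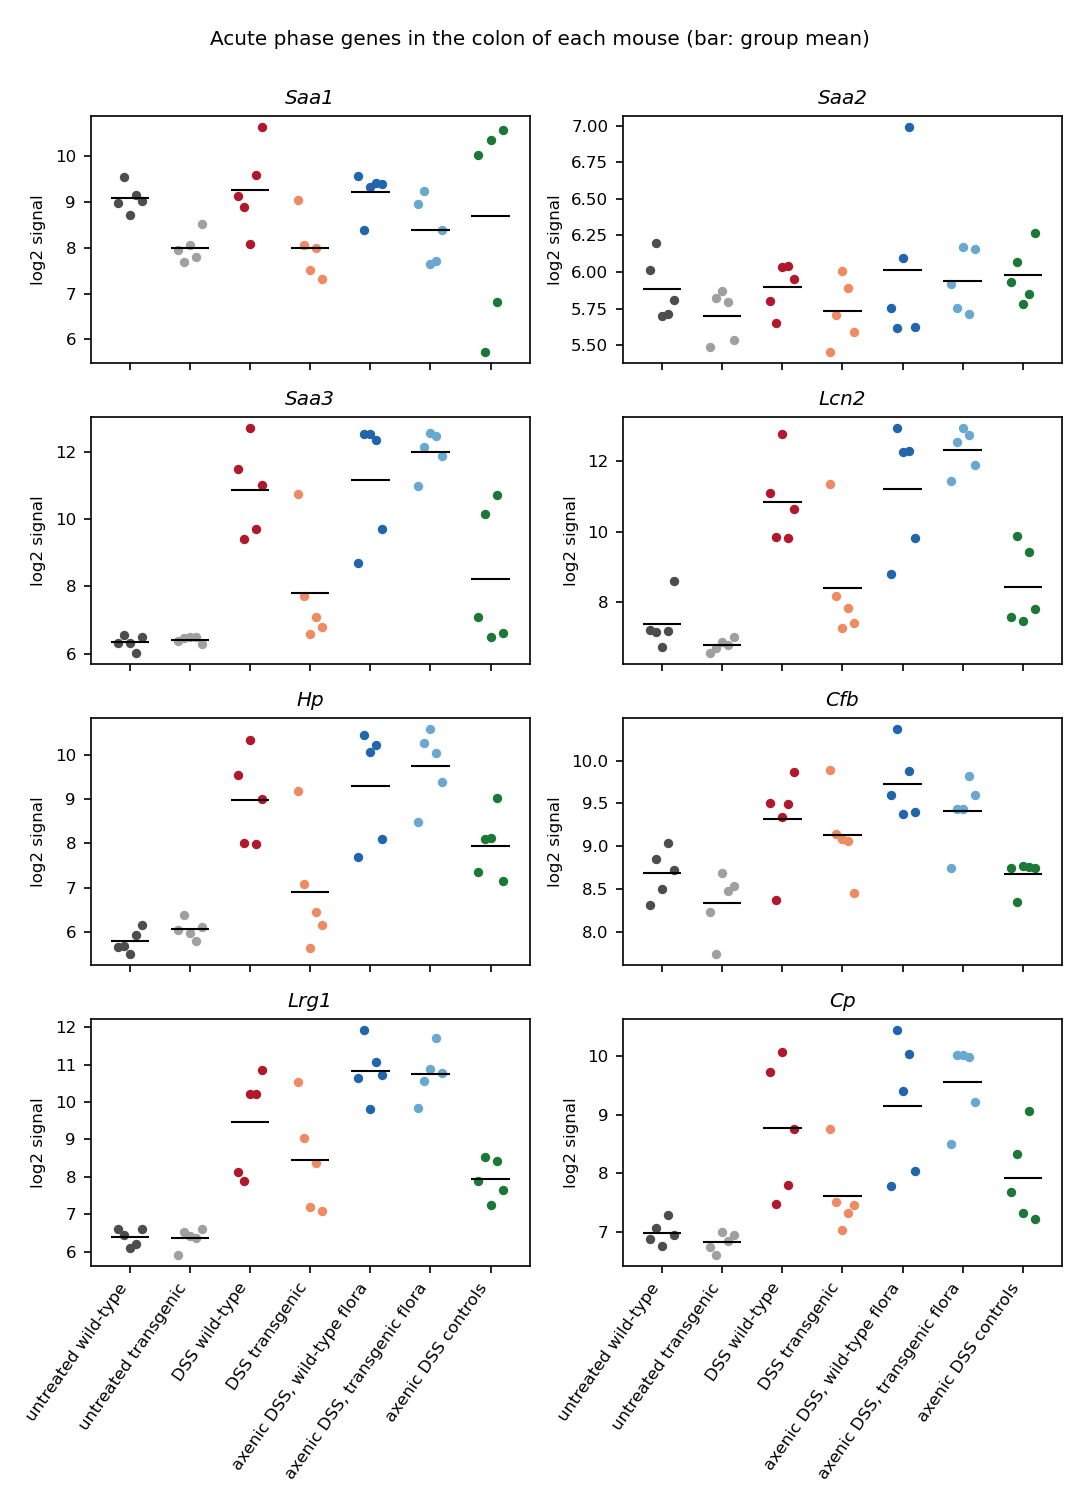
Log2 signal of the 8 measured acute phase genes (vertical axes, scaled per gene) in each mouse (points) of the 7 groups (horizontal axis), with the group mean as a bar. Saa3, Lcn2, Hp, Lrg1 and Cp were low in the 10 untreated mice, apart from Lcn2 in WT10, and spread widely under DSS, whereas Saa2 stayed between 5.46 and 6.99. Saa1 lay between 5.74 and 10.63, with its widest spread in the axenic controls.

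In wild-type mice DSS was followed by higher Saa3, Lcn2, Hp, Lrg1 and Cp, and by no call for Saa1, Saa2 or Cfb. Saa3 rose most. Saa3, a serum amyloid A made mainly outside the liver, read 6.31, 6.56, 6.31, 6.03 and 6.50 in untreated wild-type mice WT9, WT8, WT7, WT11 and WT10. In DSS-treated wild-type mice WT65, WT56, WT55, WT53 and WT52 it read 11.47, 9.39, 12.70, 9.70 and 11.01. All 5 treated mice lay above all 5 untreated mice, with mouse WT55 highest and mouse WT56 lowest. The change was 4.51 (SE 0.52), or 22.8-fold, at adjusted p = 0.0012 in limma.

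Lcn2 read 7.19, 7.14, 6.73, 7.17 and 8.61 in the untreated wild-type mice and 11.11, 9.85, 12.78, 9.81 and 10.65 under DSS. The groups did not overlap, although untreated mouse WT10 stood above its group. Lcn2 rose by 3.47 (SE 0.54), or 11.1-fold, at adjusted p = 0.0060.

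Hp read 5.66, 5.68, 5.51, 5.92 and 6.15 without DSS and 9.55, 8.002, 10.34, 7.97 and 8.997 with it, again with no overlap. It rose by 3.19 (SE 0.40, adjusted p = 0.0019). Lrg1 read 6.62, 6.45, 6.10, 6.21 and 6.60 without DSS and 8.14, 7.88, 10.21, 10.22 and 10.85 with it. It rose by 3.06 (SE 0.52, adjusted p = 0.0092), and the order of the mice differed from that of Saa3, since mouse WT52 was highest and mouse WT65 among the lower ones.

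Cp, the ferroxidase, rose by 1.78 (SE 0.45, adjusted p = 0.0435), from a range of 6.75 to 7.28 without DSS to 7.48 to 10.07 with it. That call was lost when any 1 of 7 mice was left out (untreated WT9, WT8, WT7, WT11 or WT10, or DSS-treated WT65 or WT52), at adjusted p of 0.0756 to 0.114. Cfb differed by 0.63 (SE 0.25, adjusted p = 0.21), with 4 of 5 treated mice above the highest untreated mouse and mouse WT56 at 8.38 within the untreated range. Without mouse WT56 Cfb differed by 0.87 at adjusted p = 0.0127.

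Saa1 and Saa2, the isoforms that dominate in plasma, gave no call. Saa1 read 8.97, 9.54, 8.70, 9.15 and 9.03 in untreated wild-type mice and 9.13, 8.90, 8.07, 9.60 and 10.63 under DSS. The ranges overlapped, and the difference was 0.19 with a 95% interval of -0.65 to 1.02. Saa2 differed by 0.01 with an interval of -0.27 to 0.28. Whether the probe sets of this near-identical pair read each other's transcripts was not tested, so their split is uncertain.

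In all, 5 of 8 genes were called higher, against 3% of all genes, and 5 of 8 did not overlap, against 3.2% of all genes. The median change of the 8 was 2.42, beside -0.02 over all genes. With the mean level of 6 posterior Hox genes as a covariate, 0 of the 8 passed, although Saa3 still differed by 4.02 (adjusted p = 0.14). The Hox mean was 7.19 to 8.57 in untreated and 6.42 to 6.997 in DSS-treated wild-type mice, so the ranges did not overlap and position along the colon and treatment cannot be told apart in that model.

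**Figure D2:**
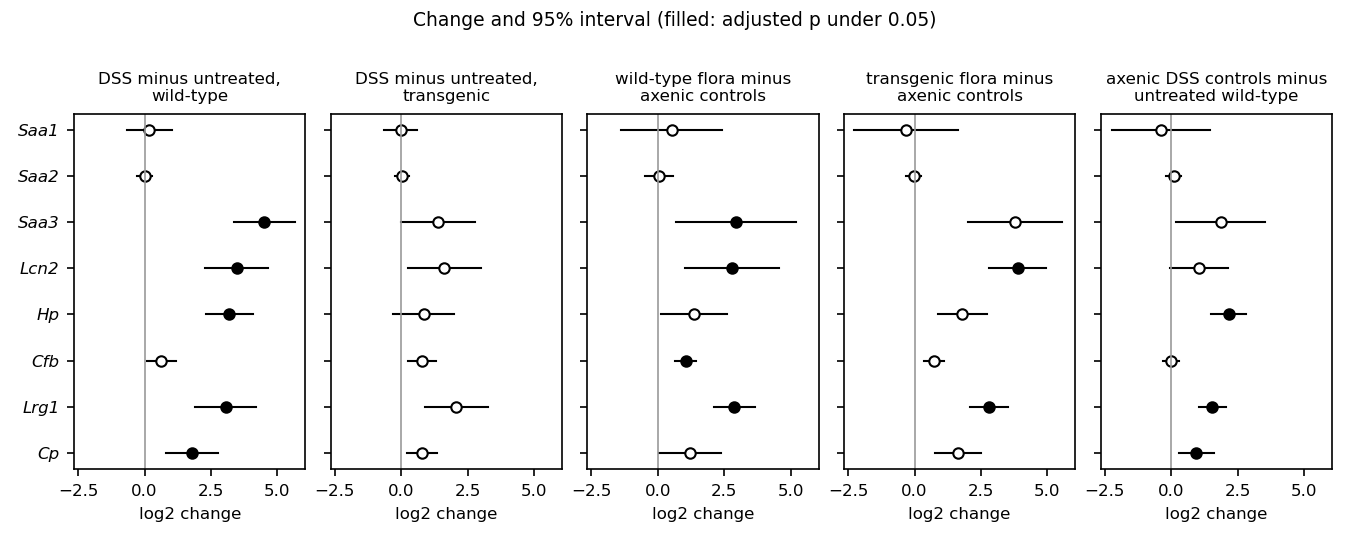
Log2 change (horizontal axis) of the 8 genes (rows) in 5 comparisons (panels), as points with 95% confidence intervals, filled where adjusted p was under 0.05. Saa3, Lcn2, Hp, Lrg1 and Cp were filled for DSS in wild-type mice, and no gene was filled for DSS in transgenic mice.

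The cytokines and the signalling genes upstream of these genes were read from lists of the pathway. Of 12 measured inducing cytokines 3 rose in wild-type mice under DSS and 0 fell: interleukin 1 beta (Il1b) by 3.87, interleukin 1 alpha (Il1a) by 2.51 and tumour necrosis factor (Tnf) by 1.03. Of 11 cytokine receptors the oncostatin M receptor gene Osmr rose, by 1.61. Of 13 signalling genes 7 rose and 0 fell, led by Nfkbiz (1.31), an NF-kB cofactor, Socs3 (1.60), the feedback inhibitor of STAT3, Bcl3 (0.97) and Irf1 (1.098).

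Of 24 other acute phase genes measured, 3 rose and 0 fell: the protease inhibitor Serpina3n by 2.48, the metalloreductase Steap4 by 2.02 and the lipopolysaccharide-binding protein gene Lbp by 1.14. Of 27 complement genes 3 rose, namely C1s1 (1.30) and C1qa (1.09) of the classical pathway and properdin, Cfp (0.87). Of 11 genes for receptors and partners of Saa and Lrg1 proteins, endoglin (Eng, 1.16) and Tlr2 (0.72) rose. Of 13 genes of iron and haem handling 0 passed.

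In transgenic mice DSS gave no call among the 8 genes, against 4.55% of all genes called in either direction, and 4 of the 8 had p under 0.05 before adjustment, as had 5208 of all 19908 genes. Saa3 read 6.37, 6.46, 6.48, 6.48 and 6.28 in untreated transgenic mice TG631, TG31, TG29, TG28 and TG26. In DSS-treated transgenic mice TG49, TG48, TG47, TG46 and TG44 it read 10.75, 7.72, 6.59, 7.08 and 6.803. All treated mice were above all untreated ones, but mouse TG49 stood far above the other 4, and the change of 1.37 (SE 0.64) was not called (adjusted p = 0.20).

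Lcn2 read 6.56, 6.69, 6.86, 6.79 and 6.998 without DSS and 11.35, 8.18, 7.25, 7.83 and 7.41 with it, a difference of 1.62 (SE 0.63, adjusted p = 0.14). Lrg1 read 5.92, 6.53, 6.43, 6.37 and 6.62 without DSS and 10.53, 9.04, 7.21, 8.38 and 7.09 with it, a difference of 2.08 (SE 0.54, adjusted p = 0.053). Again no mouse overlapped and mouse TG49 was highest in each.

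Cp read 6.74, 6.61, 6.99, 6.84 and 6.94 without DSS and 8.75, 7.50, 7.03, 7.33 and 7.46 with it (adjusted p = 0.095). Hp read 5.80 to 6.38 without DSS and 9.17, 7.09, 5.64, 6.44 and 6.16 with it, so the groups overlapped. The complement gene Cfb read 7.75 to 8.69 without DSS and 8.46 to 9.89 with it, a difference of 0.79 (adjusted p = 0.078).

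Of the 8 genes 4 (Saa3, Lcn2, Lrg1 and Cp) did not overlap, beside 5.4% of all genes. Leaving out mouse TG49 lowered the Lcn2 difference to 0.89, that of Lrg1 to 1.56 and that of Cp to 0.51, and all 3 then passed (adjusted p = 0.025, 0.042 and 0.042). Leaving out mouse TG47 gave calls for Lrg1 and Cp, and leaving out mouse TG44 calls for Cfb and Lrg1. Array weights gave 4 calls, and the hepatocyte marker mean as a covariate gave 5.

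Pathway genes passed in transgenic mice although no acute phase gene of the 8 did. Of 13 signalling genes 5 rose: Nfkbiz (1.38), Bcl3 (1.14), Stat3 (0.60), Irf1 (1.20) and Nfkbia (0.75), the inhibitor of NF-kB. Of 24 other acute phase genes the transcript of the phospholipase gene Pla2g2a rose by 2.46 and that of Steap4 by 1.31. Of 12 inducing cytokines 0 passed, and Il1b differed by 1.89.

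The complement genes C1s1 (1.21), C1qb (1.01) and C1qa (0.98) rose, 3 of 27. Among 13 iron genes transferrin, Trf, rose by 1.08 and the haemoglobin scavenger receptor gene Cd163 fell by 0.36. Among the Saa and Lrg1 receptor genes Eng (0.87) and Tgfb1 (0.69) rose, and of 11 cytokine receptors Tnfrsf1a (0.68) did.

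A direct comparison of the genotypes under DSS gave 0 calls among the 8 genes, beside 0.00502% of all genes, which was 1 gene. In the transgenic group the mean level minus that of wild-type mice was -3.07 for Saa3 (SE 0.83, adjusted p = 0.42), -2.44 for Lcn2 (SE 0.80, adjusted p = 0.62) and -2.07 for Hp (SE 0.66, adjusted p = 0.58). For each of the 3, 4 of 5 transgenic mice lay below every DSS-treated wild-type mouse, and mouse TG49 lay within the wild-type range. At an unadjusted p under 0.05, 5 of the 8 and 1030 of all genes passed. Without mouse TG49 the Saa3 difference was -3.81 at adjusted p = 0.12, and those of Lcn2 and Hp were -3.17 (0.12) and -2.64 (0.17). With array weights Saa1, Saa3 and Lcn2 passed. The posterior Hox mean was 6.42 to 6.997 in DSS-treated wild-type mice and 7.13 to 7.34 in DSS-treated transgenic mice. These ranges did not overlap, so position along the colon and genotype cannot be told apart under DSS.

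The difference between the DSS effects of the genotypes had 0 calls too, beside 0.156% of all genes, and 2 of the 8 had an unadjusted p under 0.05, as had 1478 of all 19908 genes. The DSS effect in transgenic mice minus that in wild-type mice was -3.14 for Saa3 (SE 0.90, adjusted p = 0.23) and -2.35 for Hp (SE 0.71, adjusted p = 0.27). Leaving out transgenic mouse TG49 gave calls for Saa3 (-3.88, adjusted p = 0.015) and Hp (-2.92, adjusted p = 0.026). The 6 posterior Hox genes had a median of 1.06 in the same interaction, with 0 called, so position along the colon is not separated from it.

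Without DSS the genotypes differed most in Saa1 among the 8 genes. Saa1 read 7.96, 7.68, 8.06, 7.80 and 8.51 in untreated transgenic mice, all below the 5 untreated wild-type mice given above. The difference was -1.08 (SE 0.18), at adjusted p = 0.075, which missed the threshold. There were 0 calls among the 8 genes, beside 0.0753% of all genes, and 1 of the 8 did not overlap in the lower direction, beside 0.728% of all genes.

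Leaving out untreated transgenic mouse TG26 gave a call for Saa1 (-1.21, adjusted p = 0.034). So did restricting the test to genes above the 40th percentile of signal (adjusted p = 0.048). Under DSS the Saa1 difference between transgenic and wild-type mice was -1.28 (adjusted p = 0.71), with 4 of 5 below every wild-type mouse.

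In axenic recipients Saa1 differed in the same direction between donors, at adjusted p = 0.11. With wild-type flora it read 9.56, 8.38, 9.33, 9.41 and 9.40 in mice WT880, WT793, WT639, WT597 and WT098. With transgenic flora it read 8.95, 9.24, 7.64, 7.71 and 8.38 in mice TG922, TG749, TG713, TG632 and TG446. The ranges overlapped and the difference, transgenic minus wild-type flora, was -0.83 (SE 0.33).

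For the other 7 genes the donors differed by -0.32 to 1.09, and 0 of the 8 were called, beside 0% of all genes (0 of 19908; 6856 at an unadjusted p under 0.05, of which 1 of the 8). Leaving out recipient TG749 gave a call for Saa1 (-1.05, adjusted p = 0.039).

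Against the axenic controls, recipients of wild-type flora had higher Lrg1, Cfb, Lcn2 and Saa3. Lrg1 read 10.65, 11.92, 9.80, 11.07 and 10.71 in the recipients and 7.88, 8.54, 7.24, 8.42 and 7.66 in controls CT677, CT517, CT465, CT229 and CT093, with no overlap and a change of 2.88 (SE 0.36, adjusted p = 0.00025). Cfb read 9.60, 10.37, 9.38, 9.87 and 9.40 against 8.75, 8.35, 8.77, 8.76 and 8.75. It rose by 1.05 (SE 0.18, adjusted p = 0.00089), and the recipients lay above every control.

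Lcn2 read 8.78, 12.94, 12.27, 12.30 and 9.83 in the recipients and 7.57, 9.89, 7.47, 9.41 and 7.81 in the controls. It rose by 2.80 (SE 0.80, adjusted p = 0.010), although recipients WT880 and WT098 lay within the range of the controls. Saa3 read 8.69, 12.54, 12.54, 12.36 and 9.71 against 7.10, 10.16, 6.49, 10.73 and 6.60, a rise of 2.95 (SE 1.03, adjusted p = 0.025). Controls CT517 and CT229 were high in Saa3 and Lcn2 and the other 3 controls low.

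In that comparison 32.1% of all genes were called higher and 20.1% did not overlap, so the 4 calls and the 2 genes without overlap (Cfb and Lrg1) among 8 are read against a high background. With the SD of each array as a covariate 0 of the 8 passed, and after quantile normalization only Lrg1 did. The array SD did not overlap between these groups, so SD and group cannot be told apart in that model. Hp differed by 1.35 (adjusted p = 0.052) and Cp by 1.22 (adjusted p = 0.061). The Saa3 call was lost when any 1 of 6 mice was left out (recipients WT793, WT639 and WT597, controls CT677, CT465 and CT093; adjusted p = 0.056 to 0.062). Leaving out recipient WT880 or WT098, or control CT229, gave calls for Hp and Cp. Leaving out both CT229 and CT517, a choice made after seeing the data, gave 7 calls.

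Recipients of transgenic flora had higher Lcn2 and Lrg1 than the axenic controls, beside 0.327% of all genes called higher. Lcn2 read 11.43, 12.55, 12.93, 12.76 and 11.90 in the recipients, all above every control. It rose by 3.89 (SE 0.49, adjusted p = 0.0058). Lrg1 read 9.85, 10.56, 10.87, 11.71 and 10.77 and rose by 2.80 (SE 0.33, adjusted p = 0.0038), also without overlap.

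Saa3 read 10.99, 12.13, 12.54, 12.45 and 11.87 in those recipients, again above every control. The difference was 3.78 (SE 0.81) at adjusted p = 0.080. So 3 of 8 genes did not overlap, beside 1.7% of all genes. Leaving out recipient TG922, the lowest of its group in Lcn2 and Saa3, gave 6 calls, among them Saa3 at 4.03 (adjusted p = 0.014) and Hp at 2.12 (adjusted p = 0.0074). Leaving out control CT229 gave a call for Saa3 (4.41, adjusted p = 0.031).

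Calls among other genes of the pathway are given for each recipient group, and the difference between the groups was not tested. With wild-type flora 11 of 13 signalling genes rose, led by Irf1 (1.70), Nfkbiz (1.54) and Bcl3 (0.94), and Pla2g2a rose by 3.02. Other lists were mixed: of 12 inducing cytokines 1 rose and 2 fell, and of 27 complement genes 4 rose and 6 fell. Of 11 cytokine receptors 7 rose and 1 fell, and of 13 iron and haem genes 4 rose and 1 fell. Of 11 genes for receptors and partners of Saa and Lrg1 proteins 6 rose and 1 fell. With the array SD as a covariate the calls over all genes dropped from 13401 to 1. Of 24 other acute phase genes 4 rose and 9 fell, the falls led by Orm3, which fell by 0.73, and Hamp2, which fell by 0.66. Over all 19908 genes 6399 were called higher and 7002 lower, so the falls were near the share of all genes and the rises below it. With transgenic flora 1 of 24 rose, Pla2g2a by 2.96, and 0 of 13 signalling genes passed. No gene of the cytokine, receptor, complement or iron lists was called there.

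Markers of other cell types were read in the same comparisons. With wild-type flora 13401 of all 19908 genes were called and 32.1% were called higher, so its counts are read against a high background. With transgenic flora 0.327% of all genes were called higher. With wild-type flora 6 of 8 macrophage, 5 of 10 neutrophil, 5 of 5 B and plasma cell, 4 of 4 pancreatic acinar, 4 of 7 fibroblast, 3 of 9 colon epithelium and 3 of 6 goblet cell markers were higher than in the axenic controls. Lower were 5 of 8 adipocyte and 3 of 8 hepatocyte markers and the 1 red cell marker. The colon epithelium and hepatocyte counts were near the shares of all genes called higher and lower. Of 6 posterior Hox genes 4 were lower and 1 higher, and of 6 T cell markers 1 was lower and 2 higher. With transgenic flora 4 of 10 neutrophil markers, 1 of 6 goblet cell and 1 of 5 B and plasma cell markers were higher, and 0 of 8 macrophage, hepatocyte or adipocyte markers passed. The hepatocyte mean was 6.31 to 7.16 with wild-type flora, 6.67 to 7.95 with transgenic flora and 6.85 to 8.53 in the controls. Albumin (Alb) read 9.11, 11.15 and 10.39 in transgenic-flora recipients TG749, TG713 and TG632, 8.80 in wild-type-flora recipient WT597, and at most 6.50 in the other recipients. The part of these cell types in the values of the acute phase genes was not tested.

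The axenic DSS controls were set against untreated wild-type mice, groups that differ in flora as well as in DSS, so that the effects of flora and DSS cannot be told apart. The groups differed in other ways too. Xist was high in 2 untreated wild-type mice and low in all axenic controls. The posterior Hox mean was 7.19 to 8.57 in untreated wild-type mice and 6.94 to 7.40 in the controls. Hp rose: the controls read 7.36, 8.09, 8.11, 9.04 and 7.15, all above the untreated wild-type mice, with a change of 2.16 (SE 0.30, adjusted p = 0.0020). Lrg1 rose by 1.55 (SE 0.23, adjusted p = 0.0026) and Cp by 0.94 (SE 0.30, adjusted p = 0.047). Saa3 differed by 1.87 (adjusted p = 0.094) and Lcn2 by 1.06 (adjusted p = 0.13).

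In all, 3 of 8 genes were called higher, beside 6.36% of all genes, and 2 of 8 (Hp and Lrg1) did not overlap, beside 4.22%. The Cp call was lost when any 1 of 8 mice was left out, at adjusted p of 0.050 to 0.105. Those 8 were the 5 untreated mice and controls CT677, CT517 and CT229. With the posterior Hox mean or the array SD as a covariate, 0 of the 8 genes passed.

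Hepatocyte markers did not all move alike in that comparison. Their mean over 8 genes was 6.51 to 6.838 in untreated wild-type mice and 6.853 to 8.53 in the axenic controls, so the ranges only just missed each other. Albumin read 12.04, 10.21 and 10.49 in controls CT677, CT517 and CT229 and 6.88 and 6.797 in CT465 and CT093. Transthyretin (Ttr) went the other way, at 9.41 to 10.40 in untreated wild-type mice and 8.17 to 9.20 in the controls. Of the 8 markers 1 was called higher and 1 lower. The other plasma proteins hemopexin (Hpx, 0.73), Itih4 (0.44) and Orm1 (0.53) rose, as did Serpina3n (1.91) and Steap4 (1.49), among 6 of 24. With the hepatocyte mean as a covariate Hp differed by 2.25 (adjusted p = 0.025) and Lrg1 by 1.42 (adjusted p = 0.040), and Cp was not called. That mean holds markers that did not follow albumin, so the part of liver RNA in these values was not tested. Adipocyte markers were higher as well, at 7.16 to 8.11 in the controls against 6.80 to 7.34, with 3 of 8 called higher. The part of adipose tissue in these values was not tested.

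In the axenic controls, of 12 cytokine genes 2 rose, Il1b by 2.38 and Il1f6 by 0.30. Of 13 signalling genes Bcl3 (1.03) and Socs3 (1.22) rose. Of 11 cytokine receptors Osmr rose by 1.07, whereas Il22ra1 and Il10rb, which encode the receptor of the cytokine Il22, fell by 1.46 and 0.92. These falls are read against all 19908 genes, of which 4158 were called and only 1267 called higher, so most calls were falls. Of 27 complement genes 4 rose and 1 fell, and 0 of 11 genes for receptors and partners of Saa and Lrg1 proteins passed. Trf (0.95) and haem oxygenase, Hmox1 (0.76), rose among 13 iron and haem genes.

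Conventional DSS-treated wild-type mice against the axenic controls gave 0 calls, beside 0.638% of all genes, and 4 of the 8 had an unadjusted p under 0.05, as had 6023 of all 19908 genes. Besides flora these groups differed in Xist, which was high in 2 of the wild-type mice and low in all axenic controls. The posterior Hox mean was 6.42 to 6.997 in these wild-type mice and 6.94 to 7.40 in the controls. Lcn2 was higher by 2.41 (SE 0.64, adjusted p = 0.091), Saa3 by 2.64 (SE 0.94, adjusted p = 0.12) and Lrg1 by 1.51 (SE 0.56, adjusted p = 0.12). Leaving out DSS-treated mouse WT55 gave a call for Lcn2 (1.93, adjusted p = 0.023), and leaving out mouse WT56 a call for Cfb (0.88, adjusted p = 0.030).

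Saa1 split the axenic controls. It read 10.01, 10.35 and 10.57 in controls CT677, CT465 and CT093, and 5.74 and 6.81 in controls CT517 and CT229, the lowest values of all 35 mice. Controls CT517 and CT229 were also the lowest in colon epithelium markers and the highest controls in Saa3. Without both, Saa1 was 1.23 higher in the controls than in untreated wild-type mice (adjusted p = 0.0082) and the recipients of wild-type flora minus the controls gave -1.09 (adjusted p = 0.0059), each the reverse of the direction with all controls. The part of epithelial content in the Saa1 values was not tested.

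**Figure D3:**
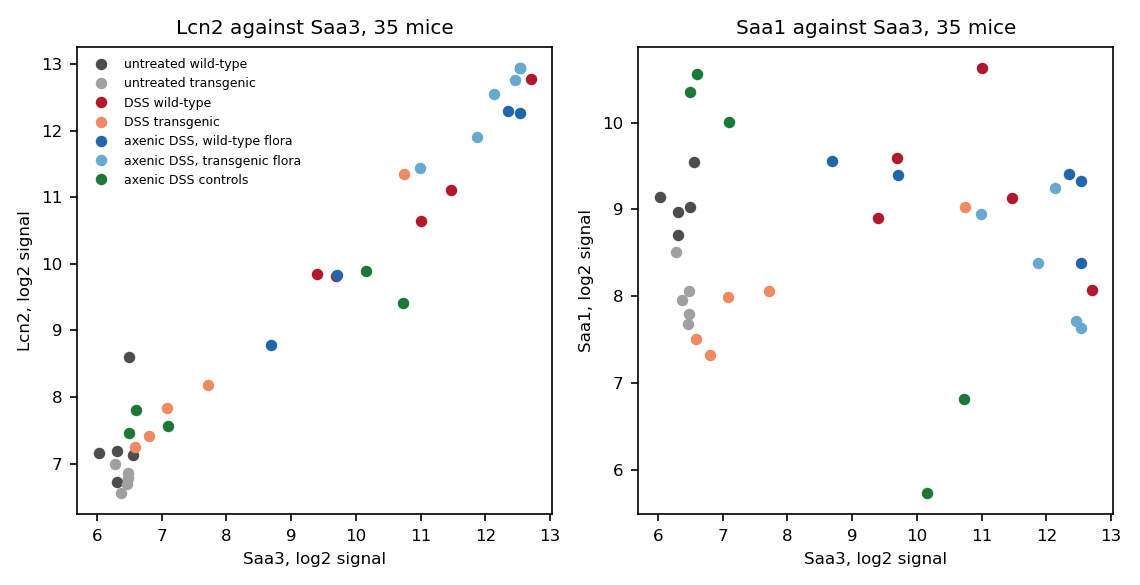
Log2 signal of Lcn2 (left) and Saa1 (right) against that of Saa3 in 35 mice, coloured by group. Lcn2 was high where Saa3 was high, with untreated mouse WT10 above the other untreated mice in Lcn2, whereas Saa1 did not follow Saa3 and was lowest in axenic controls CT517 and CT229.

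Across the 35 mice Saa3, Lcn2, Hp and Cp moved together. Their 6 pairs had r = 0.95 to 0.978 over all mice and r = 0.867 to 0.93 after subtracting group means. Lrg1 was less close to these 4 within groups, at r = 0.462 to 0.561. Saa1 and Saa3 had r = -0.045 over all mice and r = -0.477 within groups. These are descriptions, since mice of a group share their treatment and tissue.

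Levels over the groups had a common order at the top. For Saa3, Lcn2, Hp and Cp the group means ran from recipients of transgenic flora, through recipients of wild-type flora, to DSS-treated wild-type mice. Axenic controls and DSS-treated transgenic mice followed, and untreated mice were lowest. For Saa3 the means were 11.996 ± 0.63, 11.17 ± 1.83, 10.85 ± 1.35, 8.22 ± 2.06, 7.79 ± 1.71, 6.41 ± 0.09 and 6.34 ± 0.21 (SD, n = 5 each), the last 2 being untreated transgenic and untreated wild-type mice.

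Neighbours in that order overlapped in range, except DSS-treated and untreated transgenic mice for Saa3. For Lrg1 the axenic controls (7.95 ± 0.54) did not overlap with untreated wild-type mice (6.40 ± 0.23). For Cfb, with means from 8.34 to 9.73, all neighbours overlapped.

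Counted per mouse, the number of the 8 genes above the highest of the 10 untreated mice was 5 to 7 in DSS-treated wild-type mice, 6 to 7 in recipients of wild-type flora and 5 to 6 in recipients of transgenic flora. It was 4 to 5 in the axenic controls. In DSS-treated transgenic mice it was 6 in mouse TG49, 5 in mice TG48 and TG46, and 3 in mice TG47 and TG44. Saa3 and Lrg1 passed that level in all 5 transgenic mice, and Lcn2 in 1 of 5.

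**Figure D4:**
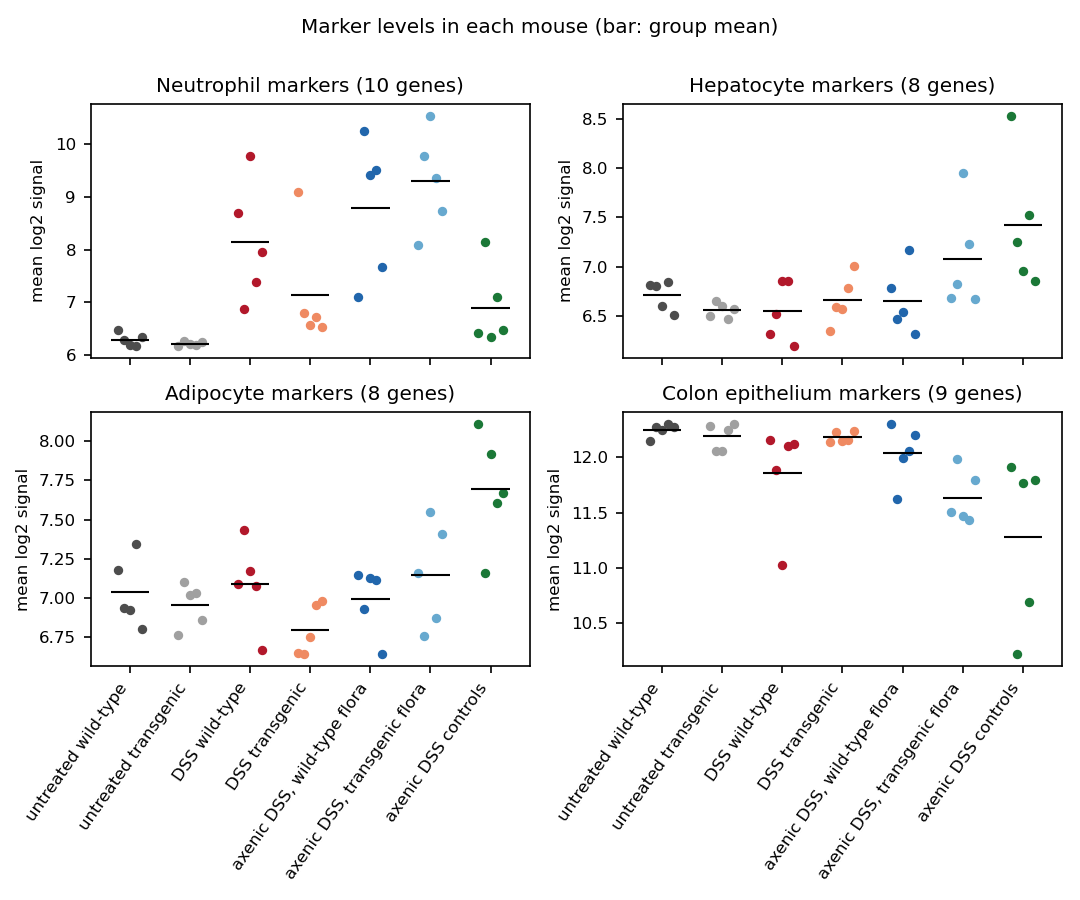
Mean log2 signal of neutrophil, hepatocyte, adipocyte and colon epithelium markers (vertical axes) in each mouse (points) of the 7 groups (horizontal axis), with group means as bars. Group means of the neutrophil markers were highest in both groups of flora recipients, although single recipients lay below some DSS-treated wild-type mice. DSS-treated mice WT55 and TG49 were the highest of their groups. Group means of the hepatocyte and of the adipocyte markers were highest in axenic controls.

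Neutrophil markers moved with Saa3 and Lcn2. The mean of 10 neutrophil genes was 6.17 to 6.47 in untreated mice, 6.86 to 9.79 in DSS-treated wild-type mice and 6.53 to 9.09 in DSS-treated transgenic mice. It was 7.10 to 10.25 with wild-type flora, 8.10 to 10.55 with transgenic flora and 6.33 to 8.14 in axenic controls. In wild-type mice 6 of the 10 rose under DSS, beside 3% of all genes called higher. In transgenic mice 1 of 10 rose, beside 689 of all 19908 genes. The direct comparison of the genotypes under DSS and the interaction each had 0 of the 10 markers called. Mouse TG49 was highest of its group in these markers (9.09) as in Saa3, Lcn2, Hp, Lrg1 and Cp. The part of neutrophil content in the values of the acute phase genes was not tested.

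The other marker lists were read for DSS in wild-type mice. In that comparison 3% of all genes were called higher and 425 of all 19908 genes were called lower, and the counts are read against these. Of 8 macrophage markers 4 rose, of 7 fibroblast markers 5, of 6 goblet cell markers 3 and of 6 T cell markers 1. Of 9 colon epithelium markers 2 fell, and of 6 posterior Hox genes 5 fell. Markers of smooth muscle (7), endothelium (6), B and plasma cells (5), pancreatic acini (4) and red cells (1) had 0 calls in limma. Hepatocyte markers, of which 1 of 8 fell, had a mean of 6.19 to 6.86 under DSS against 6.51 to 6.84 without it. Albumin (Alb) read 8.31 in WT53 and 7.76 in WT55, above the highest untreated wild-type mouse (6.48), and 5.91 to 6.27 in the other 3. In the fit with the hepatocyte mean as a covariate Saa3, Lcn2, Hp and Lrg1 passed and Cp did not (adjusted p = 0.067). That mean does not follow albumin alone. It was 6.857 in WT53, where albumin read 8.31, and 6.838 in untreated WT11, where albumin read 6.31. The part of liver RNA in the values was not tested. Of 8 adipocyte markers 1 fell.

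By likeness of pattern over the 35 mice, S100a8, a calprotectin subunit of neutrophils, came first for both Saa3 (r = 0.963) and Lcn2 (r = 0.974). Ifitm1 (0.957) and Igfbp4 (0.953) followed for Saa3, and Retnlg (0.966) and S100a9 (0.953) for Lcn2. Hp was closest to the metalloreductase gene Steap4 (0.949), Cyp7b1 (0.948) and Igfbp4 (0.942), and Cp to Lgi2 (0.965), Hgf (0.962) and Ms4a6d (0.962).

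The remaining genes had other neighbours. Lrg1 was closest to the leukocyte gene Coro1a (0.941), to Mfsd2a (0.932) and to C1qa (0.93), and Cfb to Gmfg (0.912), Unc93b1 (0.905) and Vav1 (0.897). Saa1 had weaker likeness, at most 0.771 for Atp5mpl, then 0.739 for the epithelial amino acid transporter gene Slc7a9 and 0.727 for Spink1. Saa2, which read 5.46 to 6.99 over all mice, reached 0.589 for Adgrl3, 0.587 for Hic1 and 0.584 for Epdr1.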

How the data were processed

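Arrays were of the type Affymetrix Mouse Gene 1.0 ST, each with 200 ng of RNA from 1 mouse. Per the submitters' processing notes, the authors used Affymetrix Expression Console 1.1 and RMA; deposited values, from 3.78 to 14.4, are in log2 units. The upstream genome build: not given in the sources used here. Of 28090 probe sets, 23178 were annotated; 21639 had 1 gene symbol, and 1539 with several were left out. Genes with several probe sets (990) were represented by their brightest probe set on average, which left 19908 genes. Array number limits the precision, with 5 mice per group. No pair of arrays held identical values.

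Groups followed the titles. In limma 3.58.1 under R 4.3.3, lmFit and eBayes were run on the arrays of 9 comparisons of 2 groups, and on the 20 conventional arrays for 1 interaction, two-sided, with Benjamini-Hochberg adjustment over all genes and a call at adjusted p under 0.05. SE is the moderated standard error and ± the SD over mice. The fits were tested on simulated data. Groups did not overlap where all mice of 1 lay beyond all mice of the other.

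The genes and all lists were chosen with earlier results of these data known. Lists were inducing cytokines, cytokine receptors, signalling genes, complement, iron and haem, other acute phase genes, Saa and Lrg1 receptors, and markers of cell types and of the posterior gut. Named genes were the 8 measured genes, up to 4 called genes with the smallest p per pathway list, and the 3 genes with the highest r to each; Il1b and Nfkbia in transgenic mice and Orm1 were chosen after their values were seen. Promoter windows came from RefSeq (GRCm38.p6). Figures used Python 3.11.15 with pandas 2.3.3, numpy 2.4.6 and matplotlib 3.10.9. Each fit was repeated with limma's array weights, in 1 model of all groups, after quantile normalization, with trend and robust variances, with the mean of probe sets, on genes above the 40th percentile, with Xist or posterior Hox covariates and without each mouse in turn. Hepatocyte and array SD covariates and leaving out axenic controls CT229 and CT517 together were added after seeing the data.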

Additional observations from a re-analysis of the deposited data

Results flagged for a closer look

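Of 56 sets of 5 mice (8 genes in 7 groups), 6 had 1 mouse farther from its nearest neighbour than 0.71 of the range of the group. Chance alone gives about 1 in 20 for independent sets of normally distributed values. The sets share mice, and mouse TG49 was flagged in genes that moved together, so 6 of 56 is not read against that rate. In DSS-treated transgenic mice, mouse TG49 stood apart in Saa3 (10.748, next 7.717), Lcn2 (11.348, next 8.181) and Cp (8.753, next highest 7.50). In untreated wild-type mice, mouse WT10 stood apart in Lcn2 (8.607, next 7.192). With wild-type flora, recipient WT793 was low in Saa1 (8.384, next 9.33). Among the axenic controls, mouse CT517 was low in Cfb (8.347, next 8.747).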

How the results depend on the processing

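Over 1675 results of single genes under an alternative, 1548 kept their side of the threshold, 52 lost a call and 72 gained one with the same sign. The other 3 were not called in the main fit and were called with the opposite sign under an alternative. Among the 1548 were 91 uncalled ones that changed sign. The 3 were Saa1 in recipients of wild-type flora (-1.09) and in axenic controls against untreated wild-type mice (1.23), both without controls CT229 and CT517, and Cfb in the latter comparison under quantile normalization (0.35); the cause was not tested.

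Numbers of called genes among the 8 moved as follows. For DSS in wild-type mice the Hox covariate gave 0. For DSS in transgenic mice array weights gave 4, all 35 arrays 1, quantile normalization 1, the percentile filter 1 and the hepatocyte covariate 5. The percentile filter gave 1 (Saa1) for the transgene without DSS, and array weights gave 3 for the transgene under DSS and 1 for the donor flora. For wild-type flora quantile normalization gave 1, the Hox covariate 2, the hepatocyte covariate 2, the array SD covariate 0 and leaving out both controls 7. For transgenic flora array weights gave 6, all 35 arrays 4, the array SD covariate 1 and leaving out both controls 6. For conventional mice against axenic controls array weights gave 4, all 35 arrays 3 and the Hox covariate 2. For axenic controls against untreated mice the Hox and the array SD covariate gave 0, and for the interaction array weights gave 2.

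Leaving out 1 mouse gave 4 to 6 calls for DSS in wild-type mice, 0 to 3 in transgenic mice, 0 to 1 for the transgene without DSS, 0 to 0 with DSS, and 0 to 1 for the donor flora. It gave 3 to 6 for wild-type flora, 2 to 6 for transgenic flora, 0 to 1 for conventional mice against axenic controls, 2 to 3 for axenic controls against untreated mice, and 0 to 2 for the interaction. Calls over all genes, in the same order, ranged from 8 to 5843 (1022 as reported), 178 to 3266 (905), 4 to 58 (15), 1 to 339 (1), 0 to 4886 (0), 1 to 13990 (13401), 27 to 6655 (67), 9 to 11521 (127), 0 to 8358 (4158) and 0 to 232 (31). No paired analysis was possible because the groups share no mouse numbers. The Xist covariate was not run between axenic groups, where Xist was low in all mice.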
